A study of Mus musculus with 6 samples.

Results

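The messenger RNAs of 8 enzymes of fatty acid oxidation were measured in 6 mouse liver RNA-seq libraries. The genes are *Cpt1a*, *Cpt2*, *Acadm*, *Acadl*, *Acadvl*, *Hadha*, *Hadhb* and *Ehhadh*, of 43346 gene IDs counted in all. The members were chosen by name as core enzymes of the pathway and found by symbol, each symbol matched 1 Ensembl ID, and all 8 passed the filter on low counts. None of the 8 makes ketone bodies, and genes of ketone bodies are counted among the other genes of the pathway. The comparison was DKO against Control, with 3 libraries in each group, all from livers of C57BL6 mice aged 3 months. In DKO mice both β-catenin (*Ctnnb1*) and γ-catenin (*Jup*) were removed from hepatocytes, per the design text. What drives the deletion, and which alleles the Control mice carry, is not given in the sources used here. The titles number the libraries within a group and do not name the animal behind each. All p-values therefore rest on library-to-library spread alone, which may be technical.

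Mitochondrial β-oxidation shortens fatty acids in repeated rounds that release acetyl-CoA, and in the liver this feeds ketone body synthesis during fasting. Long-chain fatty acids reach the mitochondrial matrix as carnitine esters, made by CPT1 on the outer membrane and turned back into CoA esters by CPT2 on the inner membrane. Acyl-CoA dehydrogenases for very long, long and medium chains start each round, and the trifunctional protein, built from HADHA and HADHB, finishes it for long chains. Peroxisomes run a related pathway for other chains, in which EHHADH is the bifunctional enzyme. The nuclear receptor PPARα is a known activator of these genes in liver.

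The libraries differed in more than their labels. Reads assigned to genes numbered 309731 to 1491237 in the DKO-labelled libraries and 12320487 to 15869639 in Control, which was 2.68% to 4.74% and 33.3% to 34.9% of all reads. Albumin (*Alb*) took 0.0933%, 3.08% and 0.322% of gene reads in DKO replicates 1, 2 and 3, against 6.58% to 7.66% in Control. Mitochondrially encoded transcripts took 6.27%, 14.4% and 62.7% in DKO replicates 1, 2 and 3, against 6.34% to 6.57% in Control. Olfactory and vomeronasal receptor genes, which liver does not use, summed to 1077 to 2212 CPM in the DKO-labelled libraries and 10.7 to 16.1 CPM in Control. The 9 hepatocyte markers that were found, of 10 listed, summed to 889, 46115 and 8363 TMM-scaled CPM in DKO replicates 1, 2 and 3, and to 140245 to 153754 in Control. Each had reads in both groups. *Ctnnb1* had 0, 52 and 65 reads in DKO replicates 1, 2 and 3, against 2945, 2896 and 2650 in Control. *Jup* had 6, 1 and 11 reads in those DKO replicates, against 339, 270 and 196 in Control. In edgeR neither passed (adjusted p = 0.171 for *Ctnnb1* and 0.0847 for *Jup*). For *Ctnnb1* in DKO replicate 2, 52.5 reads would come from its liver RNA and 7.56 from background reads, next to 52 seen. In replicate 3 these numbers were 13.9 and 18.8, next to 65 seen. In replicate 2 the reads of *Ctnnb1* were thus close to the number from its liver RNA. In replicate 3 background exceeded the liver number, so neither a loss nor its absence could be read. For *Jup*, 1 and 11 reads were seen in replicates 2 and 3, fewer than the 9.34 and 20.4 expected from background alone. In replicate 1 liver RNA would give only 0.697 reads of *Ctnnb1* and 0.0649 of *Jup*. Gene counts do not tell hepatocytes from other cells, and the deletion itself was not tested. The libraries are called DKO-labelled here, and every direction is one between libraries as labelled.

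All 8 genes had a lower level in each DKO-labelled library than in each Control library, and 1 of them, *Acadl*, passed the threshold. Levels are CPM, which are read counts relative to all gene reads, scaled by the TMM method. A call needed a Benjamini-Hochberg adjusted p under 0.05 by edgeR's quasi-likelihood test over 15561 genes, and 12.8% of all tested genes were called lower and 31.3% higher. The 1 of 8 members called is close to that share, and 0 were called higher. Of the 8, 2 had an unadjusted p under 0.05, both lower. Groups without overlap, with the DKO-labelled libraries lower, were found in 36.4% of tested genes, a share not taken among genes of like Control level. The median log2 fold change of the 8 was -2.49, against -0.08 over all tested genes. The 553 other tested genes whose Control mean lay in the members' range, 216 to 631 CPM, had a median of -2.41, with quartiles at -2.80 and -2.04, and 9.95% of them were called lower. In these bulk libraries, fewer hepatocytes, less RNA per hepatocyte and technical differences between libraries cannot be told apart. The part of the low liver RNA content in these values was not tested.

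**Figure D1:**
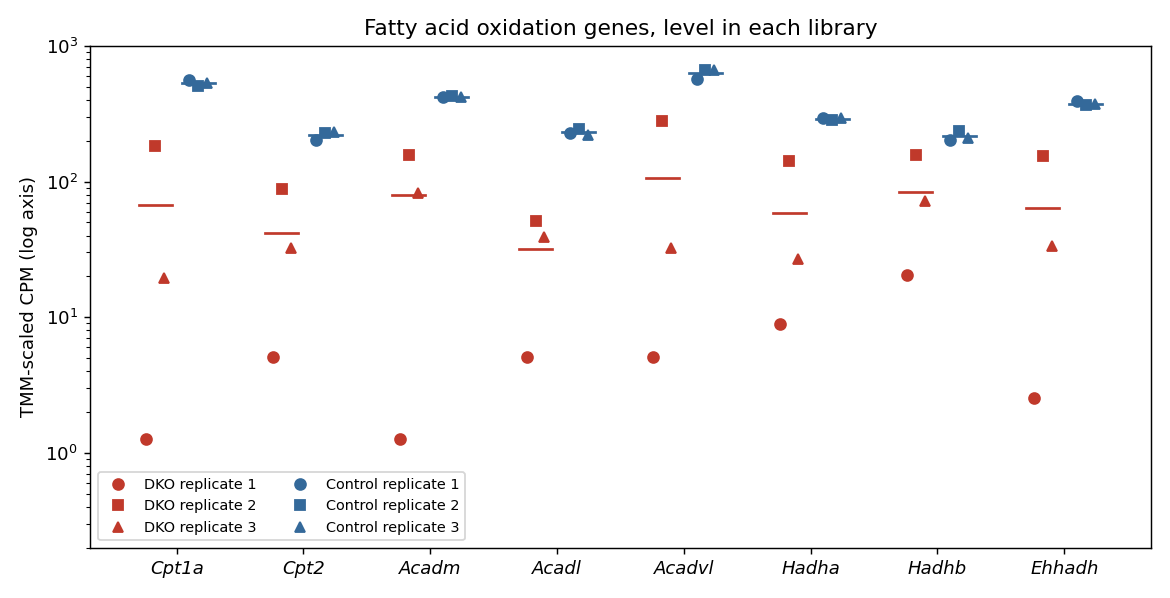
TMM-scaled CPM of the 8 genes (log axis) in each DKO-labelled library (red, left) and each Control library (blue, right), with bars at the group means. Every red point lies below every blue point of the same gene, and DKO replicate 2 is the highest red point for each gene.

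Among the DKO-labelled libraries, DKO replicate 1 was lowest and replicate 2 highest for all 8 genes. Their CPM divided by the Control mean was 0.223 to 0.734 in replicate 2, 0.0365 to 0.331 in replicate 3 and 0.00238 to 0.0945 in replicate 1. The same order held for the hepatocyte markers. The reads of the 8 genes together were 126, 1343 and 209 CPM of unscaled gene reads in DKO replicates 1, 2 and 3, against 2368, 2326 and 2292 in Control. The group means were 559 ± 680 in the DKO-labelled libraries and 2328 ± 38.2 in Control (SD, n = 3 each), and the groups did not overlap. The spread within the DKO-labelled group was larger than its mean.

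*Cpt1a* (ENSMUSG00000024900, chromosome 19, 3322334 to 3385733, plus strand, mm10) encodes the liver form of carnitine palmitoyltransferase 1, the step of fatty acid oxidation that malonyl-CoA controls. It had 1, 106 and 18 reads in DKO replicates 1, 2 and 3, against 7388, 5591 and 5094 in Control. Its level was 67.7 ± 99.7 CPM in the DKO-labelled libraries and 534 ± 27.5 CPM in Control (SD, n = 3 each). At -2.99 (SE 1.46) its log2 fold change was the lowest of the 8 (edgeR adjusted p = 0.118). DKO replicate 1 held a single read of it, the fewest of the 8 genes together with *Acadm*.

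*Cpt2* (ENSMUSG00000028607, chromosome 4, 107903981 to 107923610, minus strand) encodes the inner-membrane carnitine palmitoyltransferase. It had 4, 51 and 30 reads in DKO replicates 1, 2 and 3, against 2675, 2484 and 2244 in Control. Its level was 41.8 ± 42.1 CPM in the DKO-labelled libraries and 221 ± 15.2 CPM in Control. On the log2 scale the difference was -2.42 (SE 1.00; edgeR adjusted p = 0.0755).

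*Acadl* (ENSMUSG00000026003, chromosome 1, 66830839 to 66863277, minus strand), the long-chain acyl-CoA dehydrogenase, fell past the threshold. It had 4, 30 and 36 reads in DKO replicates 1, 2 and 3, against 2993, 2673 and 2135 in Control. Its level was 31.9 ± 24.0 CPM in the DKO-labelled libraries and 231 ± 11.2 CPM in Control, which is -2.86 on the log2 scale (SE 0.94; edgeR adjusted p = 0.0335). *Acadl* differed from the other 7 genes in DKO replicate 2, where it reached 51.6 CPM while the others reached 87.7 to 280 CPM. The call was lost without DKO replicate 3 (adjusted p = 0.0544), and without Control replicate 1, 2 or 3 (0.0896, 0.0858 and 0.0850). It was also lost in limma-voom (0.0562) and after subtraction of background reads (-2.48, adjusted p = 0.196). On the scale of 163 abundant liver genes, which keeps background reads, its direction turned, to 1.05 (adjusted p = 0.528).

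The other acyl-CoA dehydrogenases did not pass. *Acadm* (ENSMUSG00000062908, chromosome 3, 153922357 to 153944632, minus strand), the medium-chain enzyme, had 1, 91 and 76 reads in DKO replicates 1, 2 and 3, against 5460, 4674 and 4011 in Control. Its log2 fold change was -2.40 (SE 1.30; edgeR adjusted p = 0.152). *Acadvl* (ENSMUSG00000018574, chromosome 11, 70010183 to 70015411, minus strand), the very-long-chain enzyme, had 4, 163 and 30 reads in those DKO replicates, against 7469, 7282 and 6352 in Control. Its log2 fold change was -2.58 (SE 1.38; edgeR adjusted p = 0.148). These genes parted in DKO replicate 3, with 82.2 CPM of *Acadm* and 32.5 CPM of *Acadvl*, against Control means of 420 and 631 CPM. *Acadvl* overlaps *Dvl2* on the opposite strand, and whether reads were counted by strand is not given in the sources used here.

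Neither subunit of the trifunctional protein passed the threshold. *Hadha* (ENSMUSG00000025745, chromosome 5, 30118304 to 30155162, minus strand) encodes the α subunit with the hydratase and long-chain dehydrogenase activities. It had 7, 82 and 25 reads in DKO replicates 1, 2 and 3, against 3827, 3140 and 2833 in Control, or -2.31 on the log2 scale (SE 1.08; edgeR adjusted p = 0.106). *Hadhb* (ENSMUSG00000059447, chromosome 5, 30155248 to 30184593, plus strand) encodes the β subunit with the thiolase activity. It had 16, 92 and 66 reads in the same DKO replicates, against 2649, 2594 and 2001 in Control, or -1.37 on the log2 scale (SE 0.89; edgeR adjusted p = 0.218). That was the smallest change of the 8 genes. There were 2.29, 1.12 and 2.64 *Hadhb* reads per *Hadha* read in DKO replicates 1, 2 and 3, against 0.692, 0.826 and 0.706 in Control. The groups did not overlap (2.02 ± 0.79 in the DKO-labelled libraries and 0.742 ± 0.0736 in Control, SD, n = 3 each; p = 0.1, exact permutation test, two-sided). This ratio was chosen after the values had been seen, and its divisor was not above background in 2 of the 3 DKO-labelled libraries. *Hadha* had 7 reads against 17.3 expected from background in DKO replicate 1, and 25 against 31.6 in replicate 3. *Hadha* overlaps *Garem2* on the opposite strand.

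*Hadha* and *Hadhb* lie head to head with their annotated ends 86 bases apart, so the promoter windows of RefSeq (GRCm38.p6, 250 bases before to 50 after a start) share 228 bases. The windows of *Hadhb*, of *Acadl* as the member past the threshold, and of *Cpt1a* as the gene with the lowest fold change are shown to let them be set side by side. Each is written 5′ to 3′ on its gene's strand, and capitals mark motif matches on either strand. The GC box, a site of SP1-type factors, was searched as GGGCGG. The CCAAT box was searched by the letters of its name. The nuclear receptor hexamer was searched as AGGTCA.
Hadhb, chr5:30155003-30155302, plus strand: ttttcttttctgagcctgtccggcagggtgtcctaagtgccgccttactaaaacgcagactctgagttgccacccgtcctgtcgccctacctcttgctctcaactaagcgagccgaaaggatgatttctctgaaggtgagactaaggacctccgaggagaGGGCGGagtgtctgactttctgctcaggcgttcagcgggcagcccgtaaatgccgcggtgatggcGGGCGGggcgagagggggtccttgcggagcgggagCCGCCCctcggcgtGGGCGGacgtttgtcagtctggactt
Acadl, chr1:66863260-66863559, minus strand: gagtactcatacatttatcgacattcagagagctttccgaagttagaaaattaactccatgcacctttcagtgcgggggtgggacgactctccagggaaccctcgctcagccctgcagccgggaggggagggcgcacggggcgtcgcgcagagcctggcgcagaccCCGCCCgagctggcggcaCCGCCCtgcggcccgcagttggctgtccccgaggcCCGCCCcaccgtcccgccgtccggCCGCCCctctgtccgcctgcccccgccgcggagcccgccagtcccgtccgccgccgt
Cpt1a, chr19:3323051-3323350, plus strand: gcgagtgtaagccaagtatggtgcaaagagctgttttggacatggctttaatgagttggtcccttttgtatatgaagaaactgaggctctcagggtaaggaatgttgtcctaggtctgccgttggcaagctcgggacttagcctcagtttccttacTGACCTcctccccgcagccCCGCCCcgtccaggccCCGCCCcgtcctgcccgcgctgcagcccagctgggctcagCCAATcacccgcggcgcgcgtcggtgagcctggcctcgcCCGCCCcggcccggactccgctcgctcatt

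Over the windows of the 8 genes, GC boxes were found in 6, *Cpt1a*, *Cpt2*, *Acadl*, *Hadha*, *Hadhb* and *Ehhadh*. Of all 32851 windows, 35.7% held a GC box. The GC box of *Hadha* lies in the bases shared with *Hadhb*, so that site is counted in both windows. GC content ran from 50.7% (*Acadvl*) to 70.3% (*Acadl*) in the member windows, against a median of 52.7% over all windows. Windows of like GC content were not compared. CCAAT boxes were found in *Cpt1a* and *Ehhadh* and in 37.4% of all windows. The AGGTCA hexamer was found in *Cpt1a*, *Acadm* and *Acadvl* and in 16.3% of all windows. A direct repeat of it with 1 base between, AGGTCANAGGTCA, the type of site that PPARα binds with RXR, was in 0 of the 8 windows and in 0.0396% of all. A match is a description of these letters, and its absence from a window of 300 bases says nothing about binding elsewhere. The *Hadhb* window holds 4 GC boxes and 0 CCAAT boxes, the *Acadl* window the same numbers, and the *Cpt1a* window 3 and 1.

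*Ehhadh* (ENSMUSG00000022853, chromosome 16, 21761287 to 21787807, minus strand), the peroxisomal bifunctional enzyme, is the only member that works outside mitochondria. It had 2, 90 and 31 reads in DKO replicates 1, 2 and 3, against 5117, 4012 and 3565 in Control. Its level was 63.6 ± 80.5 CPM in the DKO-labelled libraries and 376 ± 13.2 CPM in Control, or -2.57 on the log2 scale (SE 1.26; edgeR adjusted p = 0.120).

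The calls of the 8 genes depended on the processing. Shares of all tested genes stand beside the counts, while genes of like Control level were compared only in the test as reported. There their median log2 fold change was -2.41, next to -2.49 for the 8 genes. A count above the share of all genes therefore does not show an excess particular to the members. With DESeq2 all 8 were called lower (30.7% of all tested genes were), with *Hadhb* at an adjusted p of 0.0123. Without DKO replicate 2 edgeR called 7 lower (26.7% of all), and without DKO replicate 1 it called 5 (22.0% of all). Without DKO replicate 3 it called 0 (12.0% of all), as it did without Control replicate 1 (4.05%), 2 (4.28%) or 3 (4.13%). The count was 5 with DESeq2 size factors (23.0% of all), 7 with no filter (15.4%), 1 with no normalization beyond library size (9.24%), 1 with a filter of 1 CPM in 3 libraries (13.5%) and 1 with the replicate block (14.0%). It was 0 in limma-voom (10.7%) and 0 after background subtraction (20.7%). Scaled on 163 abundant liver genes, the log2 fold changes lay between -0.62 for *Cpt1a* and 2.80 for *Hadhb*, 7 of the 8 were above 0, and 0 were called lower (0.54% of all were) or higher (adjusted p from 0.135 to 0.955). That scale keeps background reads and put the median of all tested genes at 4.69. Each DKO-labelled library alone against Control, a comparison of those libraries and not of the conditions, gave log2 fold changes of -8.64 to -3.34 for replicate 1, -2.16 to -0.44 for replicate 2 and -4.96 to -1.78 for replicate 3. They called 8, 7 and 8 members lower, with 44.9%, 28.6% and 33.8% of all tested genes.

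**Figure D2:**
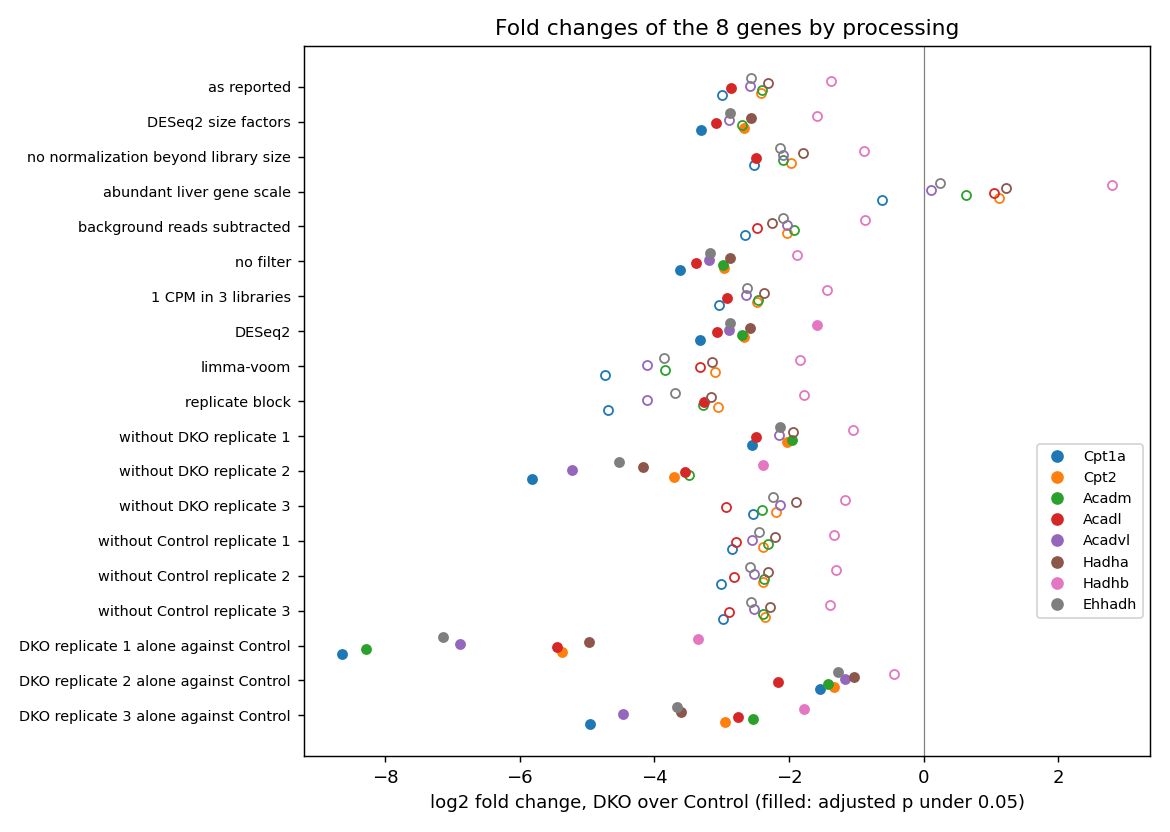
Log2 fold changes of the 8 genes (x axis, DKO over Control) under each processing setting (rows); filled points have an adjusted p under 0.05. *Hadhb* is the rightmost point in every row, and only the abundant liver gene scale places genes above 0.

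The reads of each gene were next set against what the liver RNA of the same library would give. The expected number is the Control level, scaled to the library on its 163 abundant liver genes, plus background reads estimated from 8600 protein-coding genes nearly silent in Control. Reads of the 8 genes together were 39, 705 and 312 in DKO replicates 1, 2 and 3, against 68.7, 646 and 267 expected. Background reads were 60.7, 43.0 and 108 of these expected numbers. In DKO replicate 1 only 8.01 reads were thus expected from liver transcripts of all 8 genes. The 39 reads seen there were fewer than the 60.7 estimated from background alone, so no level against liver transcripts could be read. Less background, and relative to the expected liver reads, the 8 genes stood at 1.10 and 1.28 in DKO replicates 2 and 3, against 1.03, 0.982 and 0.976 in Control. Replicate 1 gave -2.71, which is no possible level, since more background was subtracted than reads were seen. With that value included, the means were -0.109 ± 2.25 in the DKO-labelled libraries and 0.996 ± 0.0299 in Control (SD, n = 3 each), and the groups overlapped. Without DKO replicate 1 the difference, DKO-labelled less Control, was 0.19 in place of -1.10.

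In DKO replicate 2, the library with the most liver RNA of its group, 5 of the 8 genes had a 95% counting interval that held the expected number. *Acadl* was below it, with 30 reads (interval 20.2 to 42.8) against 49.99 expected. *Hadhb* was above it, with 92 reads (74.2 to 113) against 46.7 expected, and *Acadvl* was above it, with 163 reads (139 to 190) against 134 expected. Less background, *Acadl* stood at 0.581, *Acadvl* at 1.23 and *Hadhb* at 2.02 of the expected liver level. The middle 90% of the 163 abundant genes lay between 0.726 and 1.39 in that library, so that *Acadl* and *Hadhb* were outside this range and *Acadvl* inside it. Intervals cover counting error only.

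In DKO replicate 3, *Hadhb* was again above the expected number, with 66 reads (51.0 to 84.0) against 18.0. *Acadm* had 76 reads (59.9 to 95.1) against 34.6, *Acadl* 36 (25.2 to 49.8) against 17.8, and *Cpt2* 30 (20.2 to 42.8) against 19.96, each above. *Cpt1a* was below, with 18 reads (10.7 to 28.4) against 56.8, and *Hadha* and *Acadvl* were below too. *Acadl* was thus low against liver transcripts in DKO replicate 2 and high in replicate 3. Abundant genes scattered widely in replicate 3, with a middle 90% of 0.164 to 4.29, and of the 8 genes *Hadhb*, at 5.09, stood above that range. *Cpt1a* and *Hadha* stood below it, at -0.331 and -0.416, with fewer reads than the 27.7 and 31.6 expected from background alone. In DKO replicate 1, *Hadhb* had 16 reads (9.15 to 26.0) against 3.88 expected, while *Cpt1a* had 1 against 16.6, fewer than the 15.1 from background alone. *Hadhb* was the only member above the expected number in all of the DKO-labelled libraries. That number depends on the background estimate, which was low for *Hadhb*. In DKO replicate 1 it was 3.29 reads for 6595 exonic bases at 39.1% GC. For *Hadha* it was 17.3 reads for 8730 bases at 51.3% GC. Whether the excess of *Hadhb* holds with a background taken without GC bins was not tested.

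**Figure D3:**
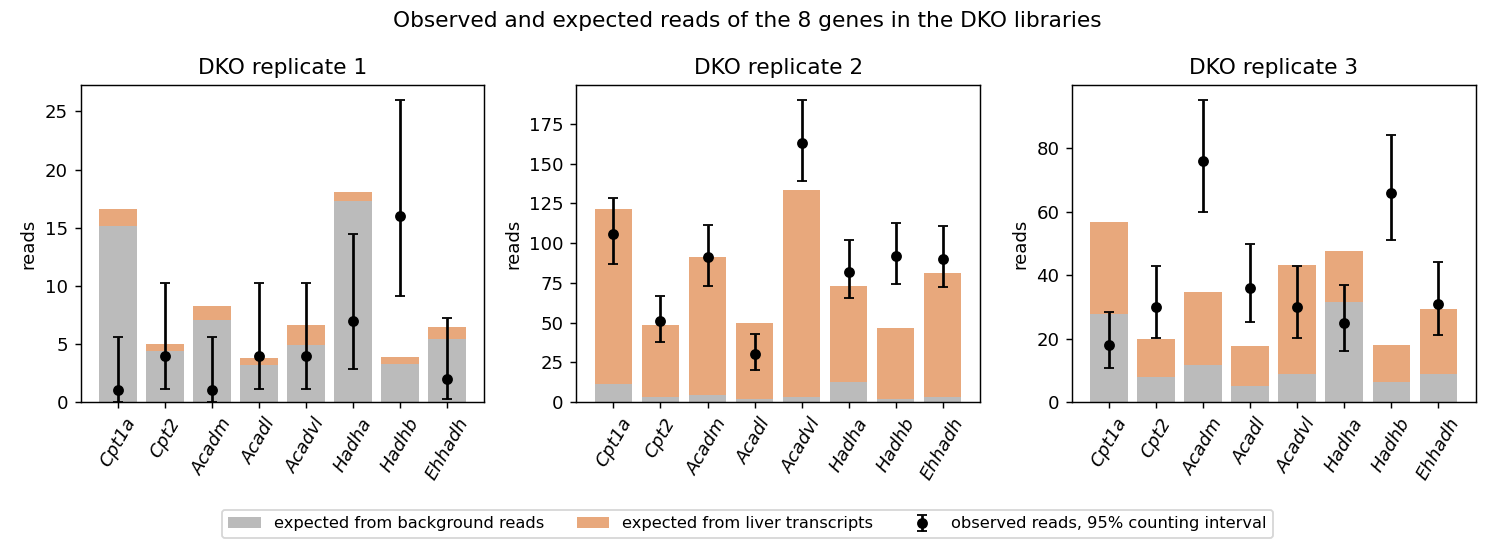
Reads of the 8 genes in each DKO-labelled library (black points, with exact 95% counting intervals) over the numbers expected from background reads (grey) and from liver transcripts (orange); the y axes differ. The expectation for DKO replicate 1 is mostly background, and *Hadhb* lies above its bar in each panel.

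The composition of the 8 genes does not depend on how libraries are scaled. Reads per kilobase of the principal transcript were summed over the 8 genes in a library, and each gene's share was taken. *Hadhb* held 47.2%, 16.2% and 23.8% in DKO replicates 1, 2 and 3, against 8.93%, 9.92% and 8.88% in Control. *Cpt1a* held 1.40%, 8.87% and 3.08% in those DKO replicates, against 11.8%, 10.1% and 10.7% in Control. For these genes the groups did not overlap, with mean differences of 19.8 and -6.44 percentage points (each p = 0.1, two-sided exact permutation tests, the smallest p that 3 against 3 libraries can give, unadjusted and 2 of 8 genes compared). For the other 6 genes the groups overlapped. Among them *Acadvl* had the most negative mean difference of all 8, at -9.40 points, with 11.1%, 27.2% and 10.2% in DKO replicates 1, 2 and 3, against 23.8%, 26.3% and 26.6% in Control (p = 0.4, exact permutation test). With background reads subtracted, and genes below background set to 0, the *Hadhb* difference was 36.9 points. In DKO replicate 1 only *Hadhb*, with 16 reads, and *Acadl*, with 4, then stayed above 0, so the larger difference rests on few reads. Without DKO replicate 1 and without subtraction the *Hadhb* difference was 10.8 points. *Acadl*, the member past the threshold, held 10.7% ± 4.42 in the DKO-labelled libraries and 10.6% ± 0.43 in Control (SD, n = 3 each; p = 1, exact permutation test).

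**Figure D4:**
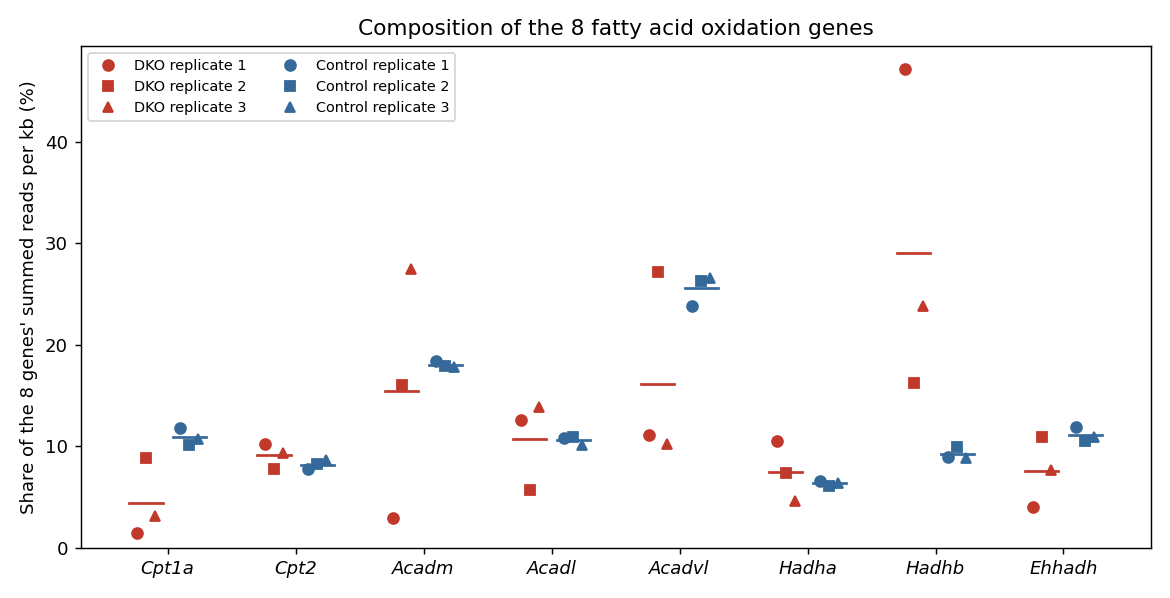
Share of each gene in the summed reads per kilobase of the 8 genes (percent) in the DKO-labelled libraries (red, left) and the Control libraries (blue, right), with bars at the means. *Hadhb* takes a larger and *Cpt1a* a smaller share in every red library than in any blue one.

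Per length, the Control livers ranked the genes as follows. *Acadvl* was highest at 291 ± 24.5 CPM per kilobase, then *Acadm* at 205 ± 2.61 (SD, n = 3). *Ehhadh*, *Cpt1a* and *Acadl* followed at 126 ± 4.43, 124 ± 6.36 and 121 ± 5.83, and did not differ beyond their spread. *Hadhb* was at 105 ± 8.96, *Cpt2* at 93.3 ± 6.399 and *Hadha* lowest at 72.4 ± 1.05. In DKO replicate 2, *Acadvl* was again highest at 129 CPM per kilobase and *Acadl* was lowest at 26.9. *Hadhb* was second there at 77.3 CPM per kilobase, beside *Acadm* at 76.5.

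The other genes of the pathway were taken from a list of 67, of which 66 were tested. Of these 3 were called higher and 10 lower by edgeR, next to 31.3% and 12.8% of all tested genes. Their median log2 fold change was -2.56, next to -2.49 for the 8 members, and 49 of the 66 were lower with no overlap between groups (36.4% of all tested genes). With DESeq2 the list had 46 lower genes (30.7% of all), and after subtraction of background reads 4 (20.7% of all). The list was not compared with genes of like Control level, so these counts do not show an excess particular to the pathway. By role, 1 of 11 tested genes of uptake, activation and the carnitine shuttle was higher and 1 lower. Among 15 other mitochondrial enzymes 2 were lower, among 14 peroxisomal genes 1, and among 7 genes of ketone bodies 2, with 0 higher in each. Among 19 regulators and PPARα targets 2 were higher and 4 lower.

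Carnitine supply and the neighbouring steps gave calls in both directions. *Slc22a5*, the plasma membrane carnitine transporter, had 0, 6 and 1 reads in DKO replicates 1, 2 and 3, against 557, 246 and 248 in Control, or -3.16 on the log2 scale (SE 1.05; edgeR adjusted p = 0.0356). That call was lost without DKO replicate 3 (adjusted p = 0.0817) and without each Control library (0.0893 to 0.162). It was also lost in limma-voom (0.0513) and with no normalization beyond library size (0.0694), and kept after background subtraction (0.0474). Background alone would give 6.08, 4.47 and 11.1 reads of *Slc22a5* in DKO replicates 1, 2 and 3. *Cpt1c*, the brain form of CPT1, had 5, 47 and 28 reads in those DKO replicates, against 7, 12 and 7 in Control, or 5.59 on the log2 scale (SE 1.01; edgeR adjusted p = 0.00174). The receptor genes that liver does not use were higher in the same libraries. The reads of *Cpt1c* compared with 8.54, 7.18 and 18.3 expected from background, so its 5 reads in DKO replicate 1 were fewer than background. The call of *Cpt1c* was not checked after background subtraction, since that setting gave no value for it. *Cpt1b*, the muscle form, had reads of 0, 1 and 0 in DKO replicates 1, 2 and 3, against 11, 0 and 0 in Control, and was not tested. *Acsl5*, which activates long-chain fatty acids, was at -2.21 on the log2 scale (adjusted p = 0.0797).

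Among the other mitochondrial enzymes, *Eci1* and *Etfdh* fell. *Eci1*, the isomerase for unsaturated chains, was at -2.73 on the log2 scale (SE 0.87; edgeR adjusted p = 0.0300), with 4, 29 and 14 reads in DKO replicates 1, 2 and 3, against 1879, 1732 and 1513 in Control. *Etfdh*, which passes electrons from the dehydrogenases to ubiquinone, was at -2.88 (SE 0.95, adjusted p = 0.0334), with 11, 48 and 27 reads in the DKO replicates, against 3553, 3254 and 3402 in Control. *Acad9*, a dehydrogenase also needed to assemble respiratory complex I, was at -1.49 (adjusted p = 0.0594). Its call changed direction with the processing. It was called lower after background subtraction (-5.87, adjusted p = 0.0136) and higher on the abundant liver gene scale (3.90, adjusted p = 0.0438). *Acad9* had 9, 11 and 10 reads in DKO replicates 1, 2 and 3, against 14.9, 9.62 and 24.5 expected from background. Of the peroxisomal genes *Pex11a*, a peroxisome division factor induced by PPARα, fell, at -2.75 on the log2 scale (SE 0.68; adjusted p = 0.00895), a call lost after background subtraction (-3.14, adjusted p = 0.0597). *Acox2*, the oxidase for branched chains and bile acid precursors, and *Abcd3*, a peroxisomal fatty acid importer, had -3.09 and -3.01 (adjusted p = 0.0664 and 0.0847). The calls of *Eci1* and *Etfdh* did not survive leaving out DKO replicate 3 (adjusted p = 0.0682 and 0.0720) or any Control library, nor background subtraction (0.270 and 0.256).

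*Slc16a1*, the transporter MCT1 that moves ketone bodies and lactate, fell, at -2.57 on the log2 scale (SE 0.61; edgeR adjusted p = 0.00719), a call lost without Control replicate 1 (0.0550) and after background subtraction (0.0564). *Oxct1*, the ketone-using enzyme that hepatocytes lack, had 13, 2 and 33 reads in DKO replicates 1, 2 and 3, against 25, 63 and 32 in Control, or 2.37 on the log2 scale (adjusted p = 0.0560) with overlapping groups.

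Regulators gave calls in both directions. *Mlycd*, which degrades malonyl-CoA, had 0, 11 and 12 reads in DKO replicates 1, 2 and 3, against 1467, 1386 and 1214 in Control, or -3.54 on the log2 scale (SE 1.00; edgeR adjusted p = 0.0179). *Vnn1*, a pantetheinase induced by PPARα, fell, at -2.96 (SE 0.92, adjusted p = 0.0268), and *Sirt3* and *Pnpla2* were the other genes called lower. *Ppargc1b*, a coactivator of mitochondrial genes, rose with 3.38 (SE 0.74, adjusted p = 0.00485), having 50, 15 and 126 reads in the DKO replicates, against 135, 58 and 59 in Control. Its relative *Ppargc1a* was called higher too (2.81, adjusted p = 0.0386), with overlapping groups, and DKO replicate 2 held 1 read of it. *Ppara* itself was at -0.47 on the log2 scale (adjusted p = 0.507), with 27, 17 and 64 reads in the DKO replicates, against 876, 635 and 577 in Control. *Sirt3*, *Pnpla2*, *Ppargc1a* and *Ppara* were named after their values had been seen. The call of *Mlycd* was lost without Control replicate 1 (adjusted p = 0.0566) or 3 (0.0534), and after background subtraction (0.0646). That of *Vnn1* was lost without each Control library (0.0755 to 0.135). In limma-voom both calls were lost (0.0701 for *Mlycd* and 0.0585 for *Vnn1*). On the abundant liver gene scale *Pex11a*, *Slc16a1*, *Eci1*, *Etfdh* and *Vnn1* had log2 fold changes above 0, and *Slc22a5* and *Mlycd* stayed below 0 without a call.

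**Figure D5:**
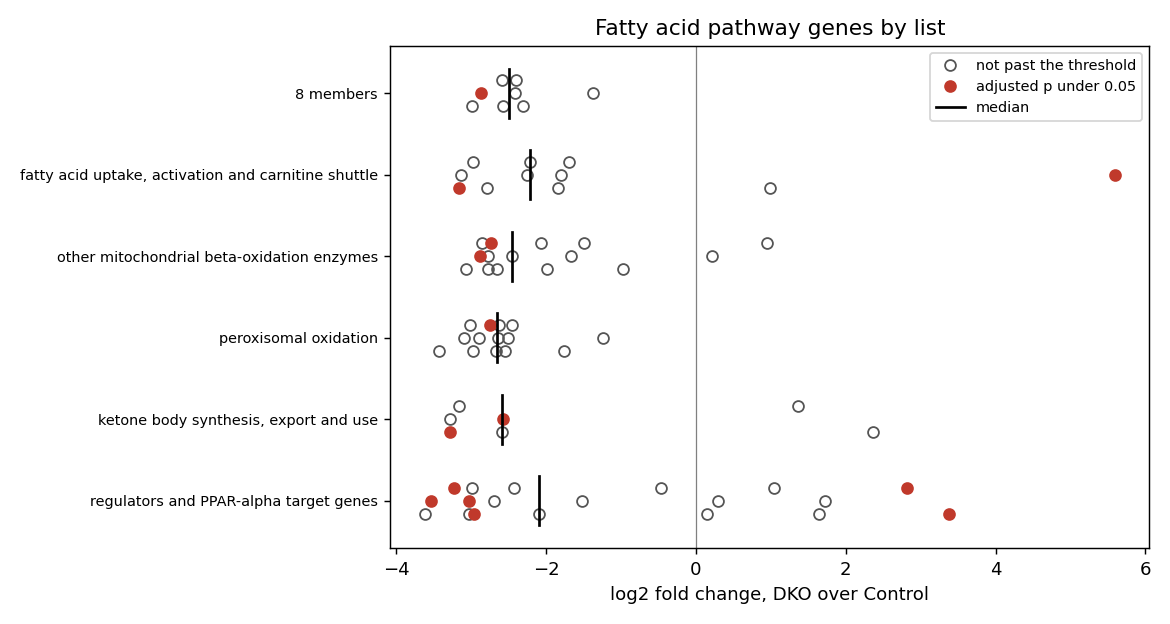
Log2 fold changes (x axis, DKO over Control) of the 8 members and of the tested genes in 5 lists of the pathway; red points passed an adjusted p of 0.05, black bars are list medians. The medians lie between -2.65 and -2.10, and the red points to the right of 0 are *Cpt1c*, *Ppargc1b* and *Ppargc1a*.

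Heart and skeletal muscle also burn fatty acids, and their 7 listed markers summed to 28.0 to 110 CPM in the DKO-labelled libraries, against 0.727 to 2.28 CPM in Control. All 7 had reads in the DKO-labelled libraries, and *Ckm* and *Actn2* were at 0 in Control. Adipocyte markers summed to 20.4 to 96.3 CPM in the DKO-labelled libraries and 13.1 to 16.4 CPM in Control, with *Adipoq* and *Cidea* at 0 in the DKO-labelled libraries and *Plin1*, *Cidea*, *Ucp1* and *Retn* at 0 in Control. Kidney tubule markers summed to 12.04 to 40.03 CPM in the DKO-labelled libraries, with *Slc22a6* and *Kap* at 0, and to at most 0.365 CPM in Control, with *Umod* at 0. Cholangiocyte markers summed to 129 to 227 CPM in the DKO-labelled libraries and 79.0 to 100.4 CPM in Control, and lymphocyte markers to 54.7 to 122 CPM in the DKO-labelled libraries, with *Nkg7* at 0, and 9.57 to 15.6 CPM in Control. Kupffer cell markers summed to 20.4 to 145 CPM in the DKO-labelled libraries and 228 to 292 CPM in Control. Sinusoidal endothelial (217 to 299 CPM), stellate (170 to 400 CPM) and red cell markers (53.5 to 428 CPM) of the DKO-labelled libraries overlapped Control, at 248 to 437, 239 to 386 and 318 to 354 CPM. All these marker sums include background reads, estimated at 54.2%, 22.9% and 19.8% of gene reads in DKO replicates 1, 2 and 3. In Control they were 0.0870% to 0.122%. The sums were not set against the background expected for the markers, so they do not show that RNA of those tissues was present. The part of other cell types in the members' values was not tested.

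The genes whose log2 level over the 6 libraries was most like the mean of the 8 members were *Ppm1a*, *Mat1a* and *Itm2b*, each with a Pearson correlation of 1.00 over 6 libraries. Of 11462 genes compared, 756 had a correlation over 0.99, and depth and liver RNA content are shared by all of them. *Mat1a*, the methionine adenosyltransferase of liver, had 15, 529 and 195 reads in DKO replicates 1, 2 and 3, against 30375, 25658 and 22671 in Control.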

How the data were processed

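RNA-seq of mouse liver was made in 6 libraries, 3 DKO and 3 Control, grouped by title. The authors deposited raw counts, 1 table of Ensembl genes a library. The submitters' processing notes list STAR, HTSeq and mm10. Tool versions, the annotation and the strand setting were not given in the sources used here. HTSeq leaves out reads that align to several places. The 5 rows that name no gene held 95.3% to 97.3% of reads in the DKO-labelled libraries and 65.1% to 66.7% in Control, and stayed out of all steps. Gene names matched 42462 of 43346 IDs, and GENCODE M21 (mm10) gave positions and lengths.

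The test was edgeR 4.0.16 in R 4.3.3 (quasi-likelihood, robust, TMM, filterByExpr by group, no covariates, two-sided), adjusted over all 15561 genes tested. The SE is the log2 fold change divided by the root of the F statistic. Alternatives were DESeq2 1.42.0, limma-voom (limma 3.58.1), other scalings and filters, background subtraction, a replicate block and leaving out libraries. Background was the reads per kilobase of 8600 coding genes nearly silent in Control (10 counts at most), taken in 10 GC bins and multiplied by union exon length. Abundant liver genes were the 163 nuclear protein-coding genes, members aside, with over 30000 Control counts. The fit was tested on simulated data drawn with the spread of the Control libraries, which does not cover the larger spread among the DKO-labelled ones. No pair of libraries held identical values.

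The members, lists and tests were chosen with earlier results of these data known. Named genes were the 8 members, the 3 smallest adjusted p in each of 5 lists, and the 3 genes most like the members (Pearson, log2 CPM with a prior count of 2, mean of at least 5 CPM). Some genes of the pathway list are counted but not reported here by name. Depth was 309731 to 1491237 gene reads in the DKO-labelled libraries and 12320487 to 15869639 in Control. Counting intervals are exact Poisson 95% intervals and cover counting error only, since reads are not independent molecules.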

Additional observations from a re-analysis of the deposited data

How the results depend on the processing

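Members called lower numbered 1 in the edgeR test as reported, and 1 again without normalization beyond library size, with a filter of 1 CPM in 3 libraries and with the replicate block. They numbered 5 with DESeq2 size factors, 7 with no filter, 8 with DESeq2, 0 in limma-voom, 0 on the abundant liver gene scale and 0 after subtraction of background reads. Leaving out 1 library gave 0 to 7. DKO replicates 1, 2 and 3 alone gave 8, 7 and 8. No member was called higher under any of these settings. Pathway genes called lower numbered 10 as reported, 34 with DESeq2 size factors, 49 with no filter, 46 with DESeq2, 5 in limma-voom, 20 with the replicate block, 0 on the abundant liver gene scale and 4 after background subtraction. Leaving out 1 library gave 1 to 45, and DKO replicates 1, 2 and 3 alone gave 56, 50 and 50. Pathway genes called higher numbered 3 as reported, 5 without normalization, 15 on the abundant scale, 1 after background subtraction, 2 to 5 without 1 library, and 6, 6 and 7 for the single DKO replicates. For counts of higher genes, the share of all tested genes is given only for the test as reported, at 31.3%. The other higher counts were thus not set against all genes, whose median log2 fold change was 4.69 on the abundant scale. Shares of all genes called lower stand beside the member counts above. The cause of the changes between settings was not tested. The abundant scale turned *Cpt2* to 1.12, *Acadm* to 0.63, *Acadl* to 1.05, *Acadvl* to 0.11, *Hadha* to 1.23, *Hadhb* to 2.80 and *Ehhadh* to 0.25, and likewise *Acsl5* (3.16), *Eci1* (1.13), *Etfdh* (1.52), *Acad9* (3.90), *Pex11a* (2.21), *Abcd3* (0.10), *Slc16a1* (2.30), *Vnn1* (0.33) and *Mat1a* (0.30). *Oxct1* turned to -0.0758 in DKO replicate 2 alone. The summed member level against abundant genes, -1.10 as reported, turned to 0.83 with background reads kept, and without 1 library it ranged from -1.80 to 0.19. The summed share of gene counts kept its direction, at -2161 to -1552 CPM of unscaled gene reads without 1 library. Shares that turned after background subtraction, with genes below background set to 0, were those of *Cpt2* (-2.62), *Acadl* (-1.42) and *Hadha* (-4.18). Without 1 library those of *Acadm* (-8.53 to 3.70), *Acadl* (-1.48 to 2.63) and *Hadha* (-0.38 to 2.58) turned. The union exon length, added after the data were seen, turned none. Same-numbered libraries were not treated as paired in the test as reported, and the titles state no pairing. Their deviations from the group means correlated at 0.121, 0.0726 and -0.0204, of which 0.121 was the highest of any pair. DKO replicate 2 correlated best with Control replicate 3 (0.0925). These correlations cannot show whether the animals were paired. The low depth of DKO replicate 1 limits every value that includes it, as does its background estimate wherever background is subtracted.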
